A study of Mus musculus with 9 samples.

Results

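The miR-148/miR-152 family was followed in the tibialis anterior (TA) muscle of control and tumor-bearing mice. Its members were taken by name from the count tables as the arms of the hairpins of miR-148a, miR-148b and miR-152 (mmu-miR-148a-3p, mmu-miR-148a-5p, mmu-miR-148b-3p, mmu-miR-148b-5p and mmu-miR-152-3p, written below without the species prefix), 5 of the 1915 mature miRNAs listed. All 5 were among the 304 miRNAs expressed, meaning that 1 library or more held over 32 counts. The remaining arm of these hairpins, miR-152-5p, was not in the list of members and is described beside them. The libraries came from 4 mice injected with PBS in the flanks (control group, C1 to C4) and 5 mice injected in each flank with Lewis Lung Carcinoma cells, a mouse lung carcinoma line (LLC group, L1, L2, L3, L5 and L6), 22 days before the muscle was taken. The sample labels give C57BL/6J mice of 10 weeks, whereas the description of the series and the methods of the study give C57BL/10 males of 8 weeks. In the methods, 8 weeks is the age of the mice used to set up the model, not their age when the muscle was taken. The sources name no allele or treatment beyond strain and injection, and a sixth LLC library, removed by the authors, was not analysed here. Total counts were 4992339 to 6548379 per library in the control group and 6216566 to 7833161 in the LLC group, and 3 counts corresponded to 0.383 to 0.601 CPM (a count relative to the total of its library) across the 9 libraries.

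MicroRNAs are cut as a duplex of 2 arms (5p and 3p) from a hairpin RNA, and usually one arm is loaded into the Argonaute protein as the guide that silences transcripts. The bases 2 to 8 of a guide, its seed, pair with the target, so that miRNAs with one seed share most of their predicted targets. The 3p arms of the miR-148/miR-152 family are known to act on Dnmt1, the maintenance DNA methyltransferase, and miR-148a has been linked to the differentiation of myoblasts through Rock1. Transcript libraries were not analysed here, so no target was measured.

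The mature sequences, taken from RefSeq for the GRCm38.p6 build, are shown because the seed divides the arms into groups, with the seed in capitals:
miR-148a-3p: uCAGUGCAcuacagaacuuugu
miR-148b-3p: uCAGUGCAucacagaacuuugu
miR-152-3p: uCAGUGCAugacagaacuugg
miR-148a-5p: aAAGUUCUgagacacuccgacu
miR-148b-5p: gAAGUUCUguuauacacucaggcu
miR-152-5p: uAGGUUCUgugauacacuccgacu

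The seed CAGUGCA was held by these 3 arms alone among the 1623 listed miRNAs that had a RefSeq sequence. The seed AAGUUCU was held by miR-148a-5p and miR-148b-5p alone, and AGGUUCU by miR-152-5p alone. Counted from position 1 at the 5′ end, miR-148a-3p and miR-148b-3p differ by C9U and U10C, with the base of miR-148a-3p given first. In the same notation, miR-148a-3p and miR-152-3p differ by C9U, U10G and U20G, and miR-148b-3p and miR-152-3p by C10G and U20G. The 3p arms therefore have the same first 8 bases. The authors allowed no mismatch in the first 8 bases of a read and kept each of its best alignments, so that a trimmed or altered read could be counted at more than one 3p arm; how many were is not shown by the tables, and their part in the levels was not tested.

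The hairpins lie on 3 chromosomes of GRCm38, and their sequences are shown with the mature arms in capitals to place both arms of each miRNA:
Mir148a: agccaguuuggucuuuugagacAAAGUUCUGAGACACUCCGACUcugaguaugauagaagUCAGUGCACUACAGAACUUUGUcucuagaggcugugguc
Mir148b: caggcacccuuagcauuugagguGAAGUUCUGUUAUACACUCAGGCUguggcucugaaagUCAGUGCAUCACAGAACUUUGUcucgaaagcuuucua
Mir152: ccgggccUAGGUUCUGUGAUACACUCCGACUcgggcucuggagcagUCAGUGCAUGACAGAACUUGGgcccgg

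Mir148a (chr6:51269812-51269910, minus strand) is intergenic in the mouse GENCODE release M21, with no other miRNA gene nearer than 351722 bp. Mir148b (chr15:103285125-103285221, plus strand) lies in an intron of Copz1 (chr15:103272714-103299868, plus strand). Mir152 (chr11:96850393-96850465, plus strand) lies in an intron of Copz2 (chr11:96849870-96861203, plus strand). Copz1 and Copz2 encode the zeta subunits of the COPI coat of transport vesicles, so the hairpins of miR-148b and miR-152 sit within paralogous host genes. The nearest other miRNA gene was 65234 bp from Mir148b and 213303 bp from Mir152, so no member was part of a dense cluster.

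No family member differed between the groups beyond the spread of the mice. In edgeR's quasi-likelihood test, 0 of 5 members had an adjusted p of at most 0.05 with a fold change of at least 1.5, against 0% of the 304 expressed miRNAs. At an unadjusted p of at most 0.05 the same test gave 0 of 5 members and 16.4% of all expressed miRNAs. This 0 depended on the setting, since the unadjusted p of miR-148b-3p was at or under 0.05 in 8 of 18 alternatives (from 0.0456 with RLE factors down to 0.000293 without a filter on low counts, where its edgeR adjusted p was 0.0164) and that of miR-148a-3p in 2 of 18. DESeq2's Wald test called 7 of the 304 miRNAs, none of them a member. The CPM of the groups overlapped for every member, and 5.92% of all expressed miRNAs had groups without overlap (1.64% higher and 4.28% lower in LLC). With only 5 members, these counts of 0 do not set the family apart from the other expressed miRNAs. The point estimates were higher in the LLC group for 2 members and lower for 3, and the median of their log2-fold changes was -0.01, beside -0.02 over all expressed miRNAs. With the filter on low counts and TMM factors, the smallest adjusted p among the members was 0.296 (miR-148b-3p). Since TA is a bulk tissue, fewer cells of a type and less of a miRNA per cell cannot be told apart in any of these values.

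miR-148a-3p, the main guide arm of miR-148a, was by far the most abundant member and ranked 37 among the 304 expressed miRNAs by mean CPM. Its level after TMM normalization was 1877, 1885, 1850.4 and 1262 CPM in C1 to C4, and 1440.5, 1185, 1679, 1098 and 1651 CPM in L1, L2, L3, L5 and L6. C1, C2 and C3 lay above all LLC mice, whereas C4 lay below L1, L3 and L6, and the groups overlapped. The means were 1719 ± 305 CPM (SD, n = 4) and 1411 ± 264 CPM (n = 5), with a log2-fold change of -0.28 (SE 0.155; edgeR, adjusted p = 0.326). The two-sided exact permutation test on log2 CPM gave p = 0.175, where the smallest p that the 126 splits of the mice allow is 0.00794. C4 was also the library with the lowest total count (4992339), and the part of the total in its level was not tested.

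miR-148b-3p, the guide arm from the Copz1 intron, had the largest point estimate of the members in the other direction. Its level was 98.6, 108, 150.2 and 129 CPM in C1 to C4, and 149, 161, 137, 316 and 106 CPM in L1, L2, L3, L5 and L6. The level in L5 was about double that of the next mouse, L2 and L5 lay above all control mice, and the other LLC mice lay within the control range. The means were 121 ± 23.0 CPM (n = 4) and 174 ± 81.8 CPM (n = 5), with a log2-fold change of 0.52 (SE 0.250; edgeR, adjusted p = 0.296). The two-sided exact permutation test on log2 CPM gave p = 0.206. Without L5 the log2-fold change was 0.19 (edgeR, adjusted p = 0.616), and without L6 it was 0.66 (edgeR, adjusted p = 0.200).

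The L5 library differed from the others in further measures. Its TMM factor of 0.762 was the lowest of the 9, the range of the others being 0.876 to 1.15. With CPM on library totals, without TMM factors, miR-148b-3p was still at 240.4 CPM in L5 and at 112 to 159 CPM in the other 8 mice. The summed CPM of the fibroblast markers (miR-199a-3p, miR-199a-5p and miR-214-3p, 3 of 3 expressed, miR-199a-3p the most abundant) was 1967, 2254, 2371 and 1939 in C1 to C4, and 1956, 2090.4, 1878, 3300.3 and 1759 in L1, L2, L3, L5 and L6. The high sum in L5 came from miR-199a-3p (3122 CPM), whereas miR-199a-5p was lower in L5 (154 CPM) than in any other mouse and miR-214-3p (24.7 CPM) lay below all control mice there. Their part in the level of miR-148b-3p was not tested.

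miR-152-3p, the arm with the family seed from the Copz2 intron, was at 39.7, 42.8, 45.7 and 32.01 CPM in C1 to C4, and at 41.0, 43.0, 40.8, 46.0 and 35.4 CPM in the LLC mice in the order above. All LLC mice except L5 lay within the control range, and L5 exceeded C3 by less than 1 CPM. The means were 40.04 ± 5.89 CPM (n = 4) and 41.2 ± 3.87 CPM (n = 5). The log2-fold change was 0.04 (SE 0.140; edgeR, adjusted p = 0.882), and the two-sided exact permutation test gave p = 0.659. Scaled to library totals, the log2-fold change was -0.12, so miR-152-3p had no direction that held across scalings.

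**Figure D1:**
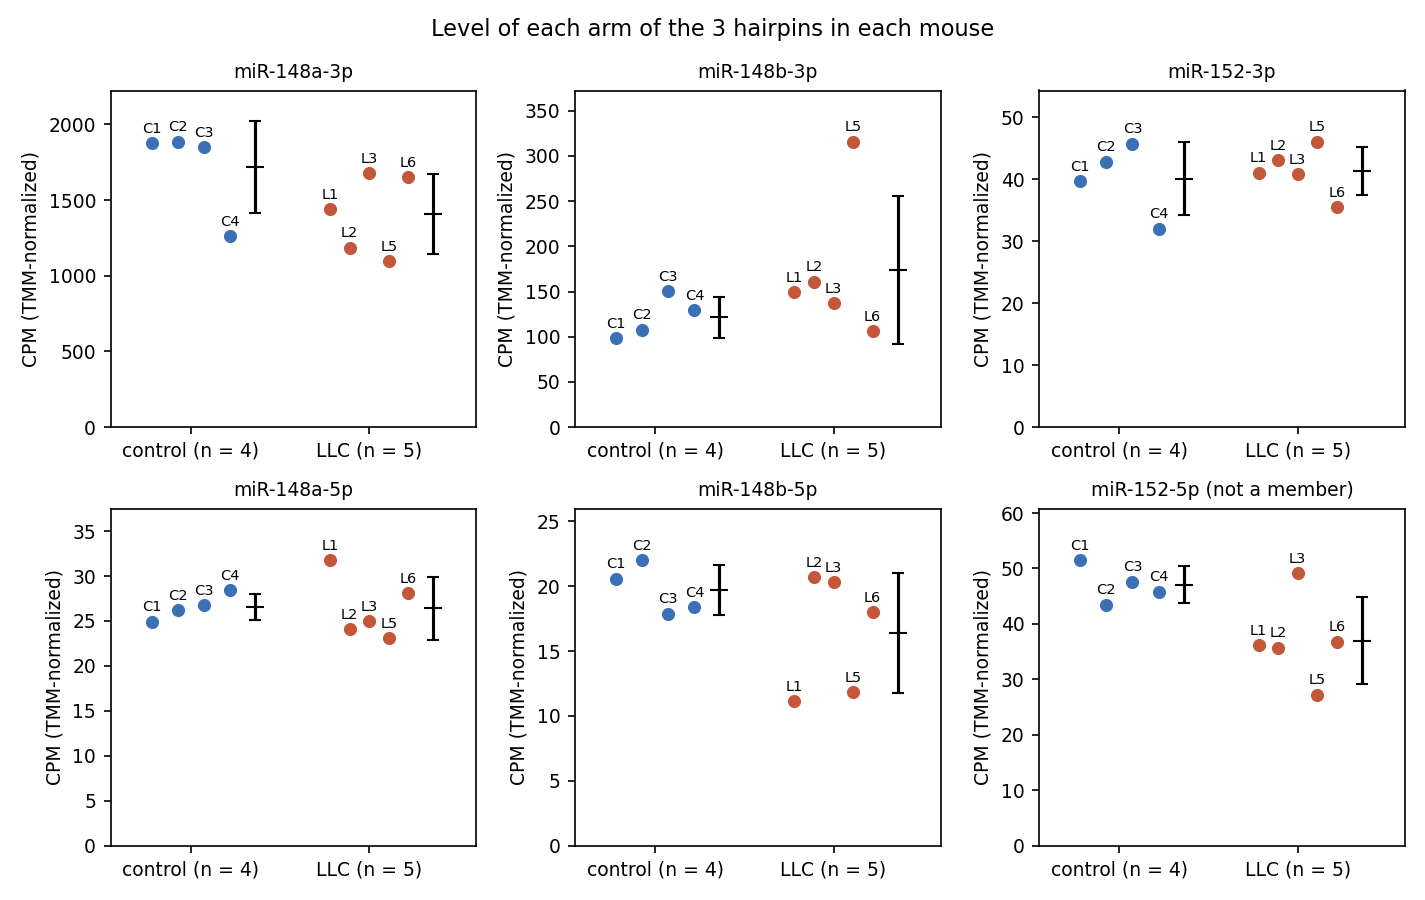
CPM after TMM normalization (y axis, from 0, a separate scale for each arm) of the 6 arms in each control (blue, n = 4) and LLC (red, n = 5) mouse, with the mean and SD of each group as black bars. The groups overlap in every panel, C4 lies far below the other control mice for miR-148a-3p (1262 CPM), and L5 lies far above the other LLC mice for miR-148b-3p (316 CPM).

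The 5p arms of miR-148a and miR-148b had fewer counts than their 3p partners in every mouse. miR-148a-5p was at 24.9, 26.2, 26.7 and 28.4 CPM in C1 to C4, and at 31.7, 24.1, 24.97, 23.1 and 28.1 CPM in L1, L2, L3, L5 and L6. Its means were 26.6 ± 1.46 CPM (n = 4) and 26.4 ± 3.52 CPM (n = 5). The log2-fold change of -0.01 (SE 0.141; edgeR, adjusted p = 0.995) turned to 0.04 with RLE factors and to -0.15 with library totals, so no direction held across scalings. The two-sided exact permutation test gave p = 0.873.

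miR-148b-5p was at 20.6, 21.99, 17.9 and 18.4 CPM in C1 to C4, and at 11.1, 20.7, 20.3, 11.8 and 17.998 CPM in the LLC mice. L1 and L5 lay below all control mice, and L2, L3 and L6 lay within the control range. The means were 19.7 ± 1.92 CPM (n = 4) and 16.4 ± 4.60 CPM (n = 5), with a log2-fold change of -0.26 (SE 0.199; edgeR, adjusted p = 0.486). The two-sided exact permutation test gave p = 0.278. The log2-fold change was -0.15 without L1 and -0.17 without L5. This arm was represented by 60 to 166 counts per library, the fewest of the family.

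miR-152-5p, outside the list of members, was at 51.5, 43.4, 47.6 and 45.8 CPM in C1 to C4, and at 36.1, 35.7, 49.1, 27.2 and 36.8 CPM in the LLC mice. All LLC mice except L3 lay below all control mice. The means were 47.1 ± 3.38 CPM (n = 4) and 37.0 ± 7.83 CPM (n = 5), with a log2-fold change of -0.34 (SE 0.156; edgeR, adjusted p = 0.293, unadjusted p = 0.0434). The two-sided exact permutation test gave p = 0.0556, so this arm passed neither the adjusted threshold nor the exact test.

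In order of level, miR-148a-3p was followed by miR-148b-3p, miR-152-5p and miR-152-3p, miR-148a-5p and miR-148b-5p. The mature arms are 21 to 24 bases long, and CPM were set side by side without a length correction. Over all 9 mice the ranges of miR-152-5p (27.2 to 51.5 CPM) and miR-152-3p (32.01 to 46.0 CPM) overlapped. The ranges of the other neighbours did not overlap, but miR-152-3p (lowest 32.01 CPM) and miR-148a-5p (highest 31.7 CPM) were nearly in contact, as were miR-148a-5p (lowest 23.1 CPM) and miR-148b-5p (highest 21.99 CPM). With library totals the ranges of miR-148a-5p (17.6 to 31.3 CPM) and miR-148b-5p (9.02 to 25.3 CPM) overlapped. The quartiles of mean CPM over the expressed miRNAs were 10.4, 34.2 and 257, which placed miR-148a-3p above the third quartile, miR-148b-3p and both miR-152 arms between the median and the third quartile, and the 5p arms of miR-148a and miR-148b between the first quartile and the median.

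The family as a whole amounted to 0.206 ± 0.0421% of the library's counts in the control group (n = 4) and 0.162 ± 0.0406% in the LLC group (n = 5). These are shares of counts and not of reads, since a read could be counted at more than 1 miRNA. For example, miR-199a-3p and miR-199b-3p both had 12695 counts in C1. The summed level of the 5 members was 1927 ± 304 CPM against 1668 ± 206 CPM after TMM normalization. The sum ranged from 1470.3 to 2091 CPM in the control mice and from 1433 to 1903 CPM in the LLC mice, with C4 the lowest control mouse. The 3 arms with the seed CAGUGCA made up nearly all of it, at 1880.3 ± 305 CPM against 1626 ± 203 CPM. The 2 arms with the seed AAGUUCU were at 46.3 ± 1.57 CPM against 42.8 ± 4.55 CPM, and L5 was the lowest mouse at 34.9 CPM. The sums are given as a description.

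The share of each member within the counts of the family does not depend on the scaling between libraries. miR-148a-3p held 91.1, 90.5, 88.5 and 85.9% of the family's counts in C1 to C4, and 86.1, 82.7, 88.3, 73.5 and 89.8% in L1, L2, L3, L5 and L6. The mean share was 88.97 ± 2.36% in the control group (n = 4) and 84.05 ± 6.50% in the LLC group (n = 5), a difference of -4.92 percentage points (two-sided exact permutation test, p = 0.183). L2 and L5 lay below all control mice, and the others overlapped.

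miR-148b-3p held 4.78, 5.17, 7.18 and 8.79% of the family in C1 to C4, and 8.92, 11.2, 7.21, 21.1 and 5.78% in the LLC mice. L1, L2 and L5 lay above all control mice, L1 by a margin within its counting error. The mean share was 6.48 ± 1.86% (n = 4) against 10.8 ± 6.09% (n = 5), a difference of 4.37 points (two-sided exact permutation test, p = 0.175). Without L5 the difference was 1.80 points (two-sided exact permutation test, p = 0.229), and that of miR-148a-3p was -2.28 points.

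miR-152-3p held 1.93, 2.05, 2.18 and 2.18% in C1 to C4, and 2.45, 3.0, 2.14, 3.08 and 1.93% in the LLC mice, again with L1, L2 and L5 above all control mice. The mean share was 2.08 ± 0.122% (n = 4) against 2.52 ± 0.510% (n = 5; two-sided exact permutation test, p = 0.183). The shares of miR-148a-5p were 1.42 ± 0.344% (n = 4) and 1.59 ± 0.215% (n = 5; two-sided exact permutation test, p = 0.333), a difference of 0.173 points that was 0.344 without C4 and 0.0966 without L1. Those of miR-148b-5p were 1.04 ± 0.163% (n = 4) and 0.99 ± 0.298% (n = 5; two-sided exact permutation test, p = 0.754). These 5 p-values are unadjusted, and the shares sum to the whole, so they are not independent. The 95% Wilson interval of a share in a single library spanned at most 1.99 percentage points for miR-148a-3p and 1.84 for miR-148b-3p, so the spread between mice of these arms was wider than the counting error. For miR-152-3p the interval spanned up to 0.779 points, more than the whole range of the control mice and less than that of the LLC mice (1.93 to 3.08%). Its intervals in L2 (2.66 to 3.38%) and L5 (2.71 to 3.49%) lay above the share of every control mouse. The intervals cover counting error only.

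**Figure D2:**
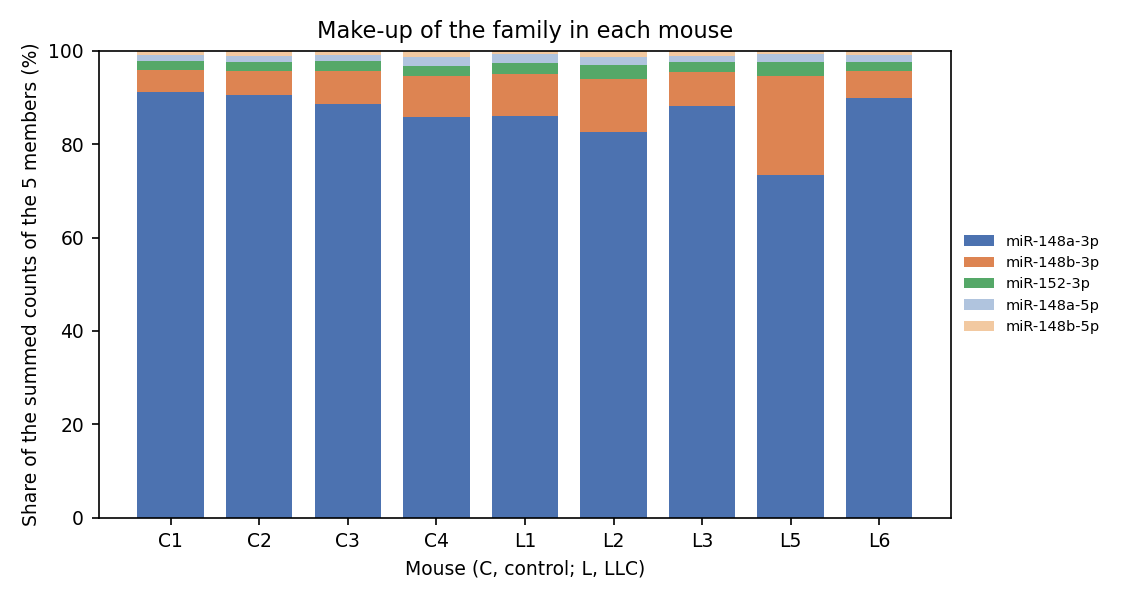
Share of the summed counts of the 5 members (y axis, percent) held by each member in each mouse (x axis, C control, L LLC), as stacked bars. miR-148a-3p holds 73.5% in L5 and 82.7 to 91.1% in the other mice, and the share of miR-148b-3p is the highest in L5 at 21.1%.

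Ratios within a library were compared next, first between the arms of one hairpin. The ratio of miR-148a-5p to miR-148a-3p was 1.33, 1.39, 1.44 and 2.25% in C1 to C4, and 2.20, 2.03, 1.49, 2.10 and 1.70% in the LLC mice. C1, C2 and C3 lay below all LLC mice, and C4 lay above all of them. The mean log2 ratio was higher by 0.27 in the LLC group (n = 4 and 5; two-sided exact permutation test, p = 0.222), and by 0.44 without C4 (p = 0.0357 in the exact permutation test, whose 56 splits allow 0.0179 at the lowest). With any other mouse left out instead, the difference was 0.19 to 0.35, with p = 0.143 to 0.375 in the same exact test.

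The ratio of miR-148b-5p to miR-148b-3p was 20.9, 20.4, 11.9 and 14.2% in C1 to C4, and 7.47, 12.9, 14.8, 3.75 and 16.9% in the LLC mice. L1 and L5 were below all control mice. The means were 16.9 ± 4.48% (n = 4) and 11.2 ± 5.44% (n = 5), with a difference in mean log2 ratio of -0.74 (two-sided exact permutation test, p = 0.183) and of -0.39 without L5.

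The ratio of miR-152-5p to miR-152-3p was 129.7, 102, 104 and 143% in C1 to C4, and 88.1, 83.0, 121, 59.2 and 104% in the LLC mice. L1, L2 and L5 lay below all control mice. The 5p arm thus had more counts than the 3p arm in all control mice and in L3 and L6, and fewer in L1, L2 and L5. The difference in mean log2 ratio was -0.42 (n = 4 and 5; two-sided exact permutation test, p = 0.103) and was -0.28 without L5.

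Between hairpins, the ratio of miR-148b-3p to miR-148a-3p was 5.25, 5.72, 8.11 and 10.2% in C1 to C4, and 10.4, 13.6, 8.16, 28.8 and 6.44% in the LLC mice. The mean was 7.33 ± 2.31% (n = 4) against 13.5 ± 8.96% (n = 5). The difference in mean log2 ratio of 0.72 had p = 0.159 in the two-sided exact permutation test and was 0.39 without L5 (p = 0.229 in the same exact test). The ratio of miR-152-3p to miR-148a-3p was 2.35 ± 0.192% (n = 4) against 3.05 ± 0.848% (n = 5; two-sided exact permutation test, p = 0.183), and its difference in mean log2 ratio of 0.34 was 0.21 without L5. That of miR-148b-3p to miR-152-3p was 308 ± 73.6% (n = 4) against 412 ± 156% (n = 5; two-sided exact permutation test, p = 0.214), and its difference of 0.38 was 0.18 without L5. Between the 5p arms, miR-148b-5p was at 74.5 ± 10.2% of miR-148a-5p in the control group (n = 4) and at 63.5 ± 21.1% in the LLC group (n = 5; two-sided exact permutation test, p = 0.325), and the difference in mean log2 ratio of -0.29 was -0.095 without L1. In all, 7 ratios were tested without adjustment, those across hairpins and that of the miR-152 arms having been added after the counts were seen.

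**Figure D3:**
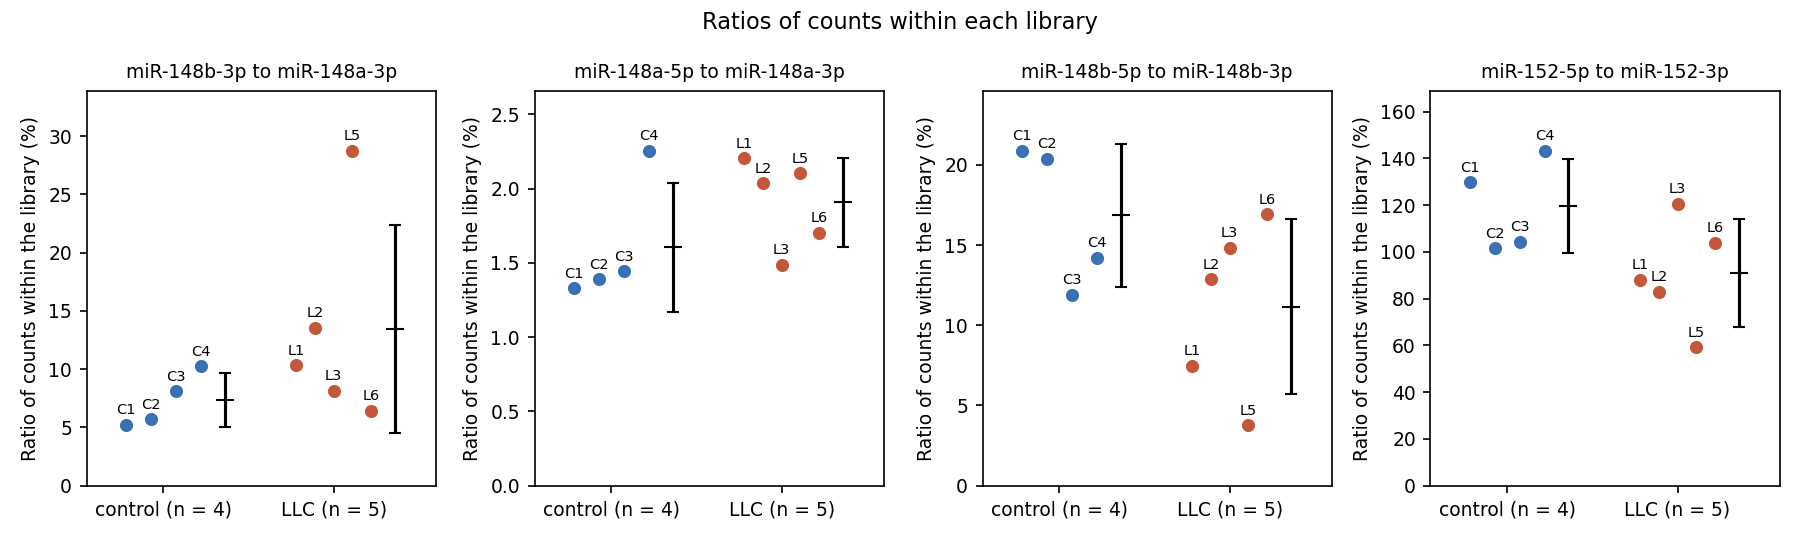
Ratio of counts within a library (y axes, percent, from 0, separate scales) for miR-148b-3p to miR-148a-3p and for the 5p to the 3p arm of each hairpin in each control (blue, n = 4) and LLC (red, n = 5) mouse, with group mean and SD as black bars. The groups overlap in each panel, and L5 is the highest mouse for the ratio between hairpins (28.8%) and the lowest for the miR-148b (3.75%) and miR-152 (59.2%) arm ratios.

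The direction of each difference was followed over the other scalings, filters, tests and left-out mice. The log2-fold change of miR-148a-3p was between -0.41 and -0.21 in all 18 alternatives, that of miR-148b-3p between 0.19 and 0.66, and that of miR-148b-5p between -0.38 and -0.15. Without a filter on low counts, where miR-148b-3p had its lowest adjusted p, its log2-fold change of 0.55 was under the 1.5-fold minimum. No member was called in any of these alternatives.

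**Figure D4:**
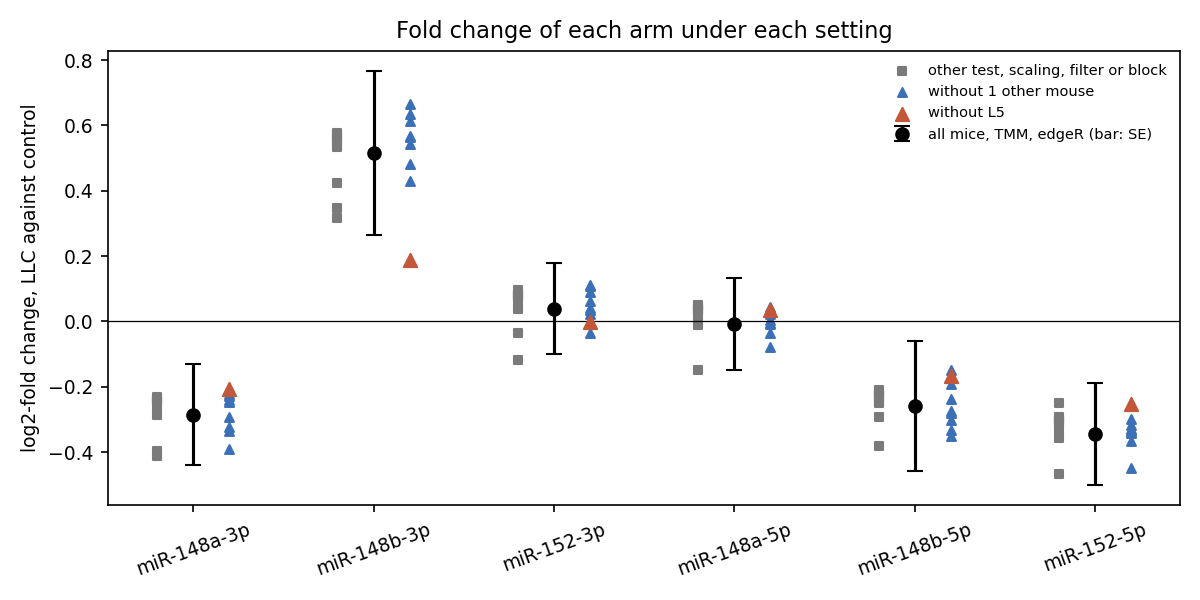
Log2-fold change of LLC against control (y axis) for the 6 arms (x axis) with all mice, TMM factors and edgeR (black, bar: SE), under other tests, scalings, filters or the replicate block (grey squares), and with 1 mouse left out (triangles, red without L5). miR-148a-3p, miR-148b-5p and miR-152-5p stay below 0 and miR-148b-3p above 0, where it drops from 0.52 to 0.19 without L5, and miR-152-3p and miR-148a-5p lie on both sides of 0.

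The profiles of the arms over the 9 mice were compared by Pearson's r of log2 CPM, as a description in which all points share the same libraries and scaling. The expressed miRNAs most like miR-148a-3p, of 303 compared, were miR-340-5p (r = 0.9498), miR-30e-5p (r = 0.915) and miR-107-3p (r = 0.890, rank 4 with library totals). miR-340-5p was at 385 CPM in control and 357 CPM in LLC mice (log2-fold change -0.11, SE 0.119; edgeR, adjusted p = 0.621). Without L5 its log2-fold change was -0.058. miR-30e-5p was at 461 and 419 CPM (log2-fold change -0.14, SE 0.120; edgeR, adjusted p = 0.536), and miR-107-3p at 98.6 and 95.1 CPM (log2-fold change -0.05, SE 0.126; edgeR, adjusted p = 0.818). The log2-fold change of miR-30e-5p was -0.083 without C2. That of miR-107-3p was -0.10 without C4, 0.0019 without L5 and 0.0012 without C2, so its sign depended on single mice.

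The family's own arms were less like it. The r with miR-148a-3p was 0.735 for miR-152-5p, 0.496 for miR-148b-5p, 0.188 for its partner arm miR-148a-5p and 0.0377 for miR-152-3p. It was -0.737 for miR-148b-3p, which ranked 278 of 303. With library totals in place of TMM factors the r of miR-148b-3p with miR-148a-3p was -0.810, and those of the other 4 arms were 0.747 to 0.888. The low values for miR-152-3p and miR-148a-5p therefore depended on the scaling, whereas the opposite profiles of miR-148a-3p and miR-148b-3p did not. The r of the arms of miR-148b with each other was -0.660 (-0.632 with library totals). That of the arms of miR-152 was -0.289 after TMM normalization and 0.576 with library totals, so its sign depended on the scaling. L5 had the lowest miR-148a-3p (1098 CPM), the highest miR-148b-3p (316 CPM) and a low miR-148b-5p (11.8 CPM). No r was computed with a mouse left out, so the part of L5 in these values was not tested.

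Other miRNAs known to act on DNA methyltransferase transcripts were set beside the family. All 7 of the list (miR-29a-3p, miR-29b-3p, miR-29c-3p, miR-143-3p, miR-185-5p, miR-342-3p and miR-126a-3p) were expressed, and edgeR called 0 of 7. At an unadjusted p of at most 0.05, 1 was higher in the LLC group, as were 5.26% of all expressed miRNAs, and 1 was lower, as were 11.2%. The median log2-fold change was -0.08, beside -0.02 over all expressed miRNAs. miR-143-3p, the most abundant and also a smooth muscle marker, was at 53249.8 ± 7087 CPM in control mice and 67463 ± 16307 CPM in LLC mice (log2-fold change 0.34, SE 0.181; edgeR, adjusted p = 0.320), with L1 the highest at 93177 CPM, and its log2-fold change was 0.20 without L1. miR-29b-3p, whose family targets Dnmt3a and Dnmt3b, the de novo enzymes, was at 46.2 ± 1.82 and 77.0 ± 20.1 CPM (log2-fold change 0.73, SE 0.176; edgeR, adjusted p = 0.0812, or 0.0201 without L3). It was the only one of the list called by DESeq2's Wald test (adjusted p = 0.00877). miR-126a-3p, an endothelial miRNA, was at 2867 ± 159 and 2312 ± 415 CPM (log2-fold change -0.31, SE 0.132; edgeR, adjusted p = 0.284).

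Of 19 miRNAs listed for myogenic differentiation, 14 were expressed and none was called by edgeR. At an unadjusted p of at most 0.05, 0 were higher and 1 was lower, where 5.26% of all expressed miRNAs were higher and 11.2% lower. The point estimate was above 0 for 4 and below 0 for 10, with a median log2-fold change of -0.14, beside -0.02 over all expressed miRNAs. miR-486a-5p, encoded in Ank1 and the most abundant of the list, had a log2-fold change of 0.20 (SE 0.189; edgeR, adjusted p = 0.570), which was 0.069 without L5. miR-26a-5p, which acts on Ezh2 in differentiating myoblasts, had -0.21 (SE 0.142; edgeR, adjusted p = 0.417). miR-27b-3p, which acts on Pax3, had -0.13 (SE 0.127; edgeR, adjusted p = 0.565), which was -0.083 without L5. miR-322-5p, was the 1 below the unadjusted threshold, at -0.31 (SE 0.143; edgeR, adjusted p = 0.296).

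The tissue label was checked against skeletal muscle markers, of which 4 of 5 were expressed. miR-133a-3p was at 20321 ± 3384 CPM in control mice and 18718 ± 1381 CPM in LLC mice, but miR-1a-3p had only 62 to 171 counts per library, and miR-206-3p only 0 to 3. Whether the mapping lowered these counts was not tested, which limits what the level of miR-1a-3p and its change can show. The summed CPM of the muscle markers was 77607 to 102490.0 in the control mice and 85379 to 125064 in the LLC mice. It was highest in L5, through miR-486a-5p, the most abundant marker (101984 CPM in L5 and 53068 to 80597 CPM in the other mice). L5 was not the highest mouse for miR-133a-3p, miR-133b-3p or miR-1a-3p, and the log2-fold changes of these were -0.12, -0.14 and -0.26 (edgeR, adjusted p = 0.641, 0.563 and 0.521). Without C1 those of miR-133a-3p and miR-133b-3p were 0.0029 and -0.030, and without L1 that of miR-1a-3p was -0.12. The 3 erythroid markers (miR-451a, the most abundant, miR-144-3p and miR-144-5p) each had an unadjusted edgeR p under 0.05 and a lower level in LLC mice, as had 11.2% of all expressed miRNAs. None passed the adjusted threshold (edgeR, adjusted p = 0.100, 0.214 and 0.163). Without L3, however, each had an edgeR adjusted p of 0.0234, and DESeq2's Wald test called miR-451a (adjusted p = 0.0277). With all mice but no filter on low counts, edgeR called all 3 (adjusted p = 0.00047, 0.0028 and 0.00094). The median of their log2-fold changes was -0.76, beside -0.02 over all expressed miRNAs. Their summed level was 325, 267, 228 and 215 CPM in C1 to C4, and 92.4, 189, 219.8, 110 and 149.6 CPM in the LLC mice, so that L1 and L5 were the lowest, as for miR-148b-5p. Of the leukocyte markers, 5 of 5 were expressed, with 1 higher and 1 lower at an unadjusted p of at most 0.05 by edgeR, beside 5.26% higher and 11.2% lower of all expressed miRNAs. Their summed level was 691 to 800.3 CPM in the control mice and 583 to 742 CPM in the LLC mice. miR-150-5p, the most abundant, was the only one with a point estimate below 0 (log2-fold change -0.38; edgeR, adjusted p = 0.100), and the other 4 were above 0, among them miR-223-3p at 0.70 (edgeR, adjusted p = 0.0936, 0.0449 without L1, or 0.0028 without a filter on low counts; DESeq2's Wald test, 0.00877). Of those 4, miR-142a-5p was at only 0.017 and turned to -0.065 without L3. Of the endothelial markers (2 of 2 expressed, miR-126a-5p the more abundant) 1 was lower by the same measure, as was 1 of the 3 fibroblast markers, miR-199a-5p (log2-fold change -0.33; edgeR, adjusted p = 0.214). Of the smooth muscle markers (2 of 2 expressed, miR-143-3p the more abundant) 0 were lower or higher. These counts stand beside the same 5.26% higher and 11.2% lower of all expressed miRNAs. The hepatocyte marker miR-122-5p had 0 to 1 counts per library. The part of these cell types in the levels of the family was not tested.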

How the data were processed

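Small RNA libraries of TA muscle from 4 control and 5 LLC mice were analysed, 1 library per mouse. The authors prepared them with a TruSeq kit, sequenced 50-bp single-end reads, mapped them with Bowtie to miRBase 21 with no mismatch in the first 8 bases and kept all best alignments; the labels also name HTSeq, DESeq2 and FastQC. The deposited values are whole read counts per mature miRNA, without normalization, so trimming and mapping are already in them. Groups and replicate numbers come from the sample titles.

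The 304 miRNAs above 32 counts in 1 library or more entered edgeR 4.0.16 (R 4.3.3), with library sizes scaled by TMM factors, the quasi-likelihood F test without a block and Benjamini-Hochberg adjustment over all 304. Calls needed a 1.5-fold change or more in either direction and an adjusted p no higher than 0.05. Log2 CPM (prior count 2), shares and log2 ratios (pseudocount 0.5) were compared by two-sided exact permutation of the mice, with scipy 1.17.1. CPM are after TMM normalization unless stated, and errors are SD over mice. Sequences were read from RefSeq tables (GRCm38.p6) and host genes from the mouse GENCODE release M21. The miRNAs named were the members, other arms of their hairpins, the 3 miRNAs with the highest r to the most abundant member, and examples or all miRNAs of each list. The members, lists and cell type markers were chosen with earlier results of these data known. The tests were checked on simulated data. Alternatives were RLE factors, library totals, DESeq2 1.42.0 (size factors and Wald test), limma 3.58.1 with voom, other filters, other pseudocounts, a block for the replicate number, calls without the fold-change minimum, the 3p arms alone, log2 odds of shares, and each mouse left out. Pairs of libraries within a group differed by a chi-square of at least 124 times its degrees of freedom, and each was kept as its own replicate.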

Additional observations from a re-analysis of the deposited data

Results flagged for a closer look

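Single mice stood apart from their group in 5 of 36 groups of values examined by Dixon's criterion, which by chance flags about 1 in 20 groups (1.8 of 36 here). Among the control mice, C4 stood apart for the level of miR-148a-3p (1262 CPM), the share of miR-148a-5p within the family (1.93%) and the ratio of miR-148a-5p to miR-148a-3p (2.25%), values that share the counts of miR-148a-3p or miR-148a-5p. Among the LLC mice, L5 stood apart for the level of miR-148b-3p (316 CPM) and the ratio of miR-148b-3p to miR-152-3p (686%).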

How the results depend on the processing

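The number of miRNAs called over the whole table was 0 with edgeR, 7 with DESeq2's Wald test (4 higher, 3 lower) and 22 without a filter on low counts (14 higher, 8 lower). With 1 mouse left out it was 0 to 8, being 1 without L1 and 8 without L3. Over the 260 alternative values, 235 were counted as unchanged, 18 reversed direction, 6 moved and 1 passed a threshold. Unchanged fold changes kept their direction and their call, which needs both the adjusted p and the fold-change minimum. Unchanged shares and ratios kept their direction and their side of p = 0.05 in the exact permutation test. An unchanged number of calls was equal to the main one, and an unchanged r moved by less than 0.05. The log2-fold change of miR-148a-5p turned from -0.01 to 0.036 with RLE factors or DESeq2 size factors, 0.037 with DESeq2's Wald test, 0.038 with no filter, 0.051 with filterByExpr and 0.012 with at least 10 counts in every library; without 1 mouse it was -0.079 to 0.044. That of miR-152-3p turned from 0.04 to -0.12 with library totals, which moved the median of all miRNAs from -0.02 to -0.17, and was -0.035 to 0.11 without 1 mouse. The difference in share of miR-148b-5p was -0.163 to 0.0311 percentage points without 1 mouse, and the log2 ratio difference of miR-148a-5p to miR-148a-3p was 0.19 to 0.44. The cause was not tested.

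Same-numbered mice are different animals, so their numbers were not taken as pairs. The r of their deviations from the group means was -0.23 (C1 and L1), -0.09 (C2 and L2) and -0.25 (C3 and L3). The mean r was -0.190, against 0.0339 for other pairs, which ranged from -0.33 to 0.44. Whether same-numbered libraries shared a step of the processing was not tested. With a replicate block edgeR called 0 miRNAs, with 15 at an unadjusted p of at most 0.05 beside 50 without the block. The log2-fold changes under the block were 0.044 for miR-148a-5p, -0.036 for miR-152-3p, 0.35 for miR-148b-3p and -0.40 for miR-148a-3p (edgeR, adjusted p = 0.706, unadjusted p = 0.0346).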
